A study of Mus musculus with 12 samples.

Results

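The microRNA (miRNA) processing and silencing machinery was followed in recipient macrophages through 10 genes chosen by name, Drosha, Dgcr8, Xpo5, Dicer1, Tarbp2, Ago1, Ago2, Ago3, Tnrc6a and Tnrc6b, out of 35944 genes listed and 13923 genes tested. All 10 were tested. The data are 12 RNA-Seq libraries of polyadenylated RNA from the mouse macrophage line RAW264.7, all exposed for 48 h to extracellular vesicles (EVs) at 3 µg of EV protein per ml in medium whose serum had been depleted of EVs. The EVs came from MS-1 cells, a mouse endothelial line, and had been electroporated with a double-stranded miRNA mimic. Those of 3 groups are named after the mimic they carried, miR-222-3p-EVs, miR-183-5p-EVs or else miR-142-5p-EVs, and ctrl-EVs carried the worm miRNA cel-miR-67 as the control. Every group held 3 libraries numbered 1 to 3, all of 1 cell line, and all 12 had received electroporated vesicles, so no library shows cells without EVs. The methods say in general that experiments were repeated, but neither they nor the labels say that the 3 libraries of a group were separate cultures. If they were not, p-values measure only the spread between these libraries, which may be technical. The question put to the data was whether cells that receive a mimic hold the proteins' transcripts that such a mimic needs, and whether these transcripts differ between the EV groups.

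A miRNA gene is transcribed as a long hairpin transcript. In the nucleus the Microprocessor, formed by the RNase Drosha and its RNA-binding partner Dgcr8, cuts out the hairpin, which Exportin-5 (Xpo5) carries to the cytoplasm. There the RNase Dicer1, with its partner Tarbp2, trims it to a short duplex, 1 strand of which is held by an Argonaute protein. Argonautes find target mRNAs by pairing through the miRNA's seed, and Ago2 is the mouse member best known for cutting a fully paired target. The GW182 proteins, encoded by Tnrc6a, Tnrc6b and Tnrc6c, bind Argonautes and recruit deadenylases. A double-stranded mimic of mature length enters after Drosha and Dicer1 and depends on the Argonautes and GW182 proteins.

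The mature mouse miRNAs of these names are shown because their seeds, bases 2 to 8 in capitals, define the sites searched for in the machinery's own transcripts. The sequences are RefSeq's, with positions on GRCm38.p6, and all 3 have different seeds. The first lies at chr11:87756867-87756887 on the plus strand, the second at chr6:30169711-30169732 on the minus strand and the third at chrX:19146901-19146923 on the minus strand.
miR-142-5p: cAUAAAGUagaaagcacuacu
miR-183-5p: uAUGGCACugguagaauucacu
miR-222-3p: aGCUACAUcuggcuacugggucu

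The libraries held 16294611 to 22974853 estimated counts. All 10 macrophage markers examined (Csf1r, Adgre1, Cd68, Itgam, Ptprc, Lyz2, Spi1, Cd14, Fcgr3 and Tyrobp) were tested, with a summed level of 1620 to 2270 TPM in ctrl-EV libraries and 1680 to 2230 TPM in miR-EV libraries. TPM is a level relative to transcript length and allows genes to be compared. Of 10 endothelial markers, those of the EVs' source, 7 stayed below 1 TPM in every library, and the sum of the list was 13.8 to 30.3 TPM over all libraries, most of it from Egfl7 at 18.4 ± 5.70 TPM (SD, n = 12). Cldn5 was listed at 0 in every library, and Kdr reached at most 0.0629 TPM. Libraries of the same number in different groups resembled each other far more than libraries of the same group did. What a shared number stands for is not stated. In bulk RNA a lower level cannot be told apart from fewer cells that hold the transcript.

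RAW264.7 cells held transcripts of every step. Dicer1 had the highest level of the members, at 37.8 ± 8.84 TPM (SD, n = 12), and ranked above Ago2 in 12 of 12 libraries. Ago2 at 30.6 ± 8.18 TPM, Xpo5 at 29.9 ± 9.04 TPM, Tnrc6a at 29.9 ± 5.82 TPM and Tarbp2 at 27.4 ± 3.48 TPM followed. These 4 could not be put in order, since Ago2 was above Xpo5 in 4 of 12 libraries, Xpo5 above Tnrc6a in 8 and Tnrc6a above Tarbp2 in 8.

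Drosha stood at 20.9 ± 5.15 TPM and was below Tarbp2 in 11 of 12 libraries. Ago1 had 17.3 ± 2.47 TPM and Tnrc6b 15.0 ± 3.82 TPM. The lowest members were Ago3 at 8.63 ± 2.30 TPM and Dgcr8 at 8.06 ± 4.26 TPM, each above the other in 6 of 12 libraries. The 10 members lay between the percentiles 35.4 (Dgcr8) and 71.2 (Dicer1) of the levels of all tested genes. The relatives outside the list were lower than the leading members of their families, Ago4 at 5.15 ± 0.864 TPM and Tnrc6c at 10.7 ± 3.31 TPM.

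**Figure D1:**
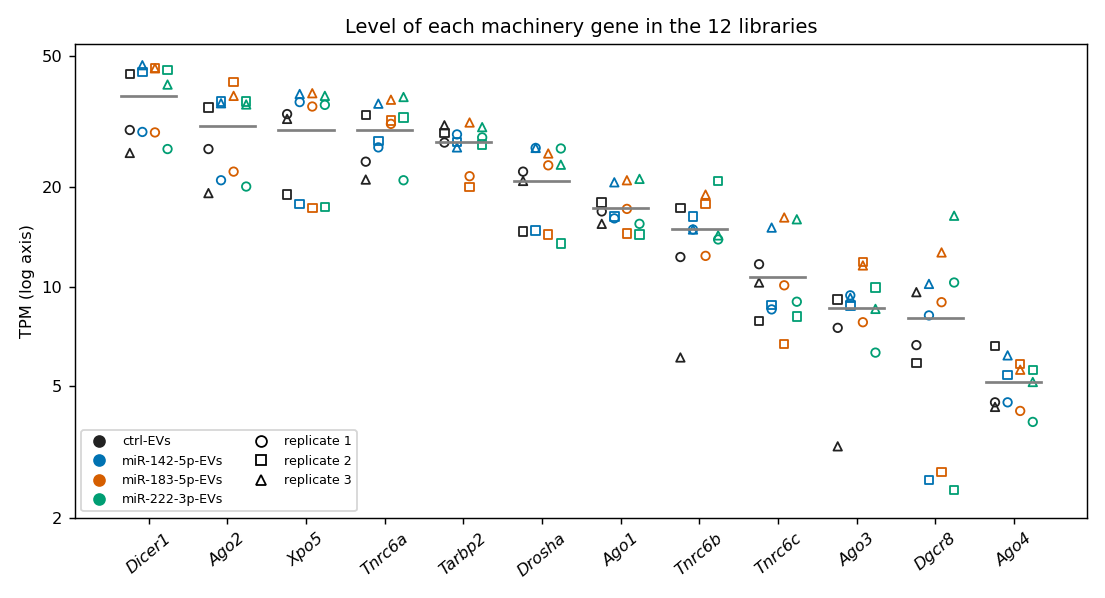
TPM (log axis) of the 10 members and of Ago4 and Tnrc6c in the 12 libraries, with colour for the EV group, symbol for the replicate number and a grey line at the mean of 12. Dicer1 has the highest mean, 37.8 TPM, and Dgcr8 spreads most widely for its level, from 2.43 to 16.4 TPM.

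No member was called between any miR-EV group and ctrl-EVs. In DESeq2 fits of the 4 groups, 0 of 10 members had an adjusted p under 0.05 in the comparison of miR-142-5p-EVs, of miR-183-5p-EVs, of miR-222-3p-EVs or of all 9 miR-EV libraries with the 3 ctrl-EV libraries, where 0.00718% (1 gene), 0.0%, 0.0% and 0.0% of all tested genes did. At an unadjusted p under 0.05 there were also 0 of 10 members, beside 0.524%, 0.991%, 0.718% and 1.02% of all tested genes. A likelihood ratio test over the 4 groups called 0 of 10 members and 0.00718% of all tested genes. edgeR and limma on log2(TPM + 1) also called 0 members, with 0 at an unadjusted p under 0.05 in the fits without a block. The same DESeq2 fits with the replicate number as a block called 0.0575%, 0.417%, 0.0359% and 0.603% of all tested genes and again 0 of 10 members.

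At an unadjusted p under 0.05 the blocked DESeq2 fit held 3 of 10 members for miR-183-5p-EVs, where 10.1% of all tested genes passed, and 1 of 10 for all miR-EVs, where 10.6% passed. It held 0 of 10 for miR-142-5p-EVs (5.86% of all tested genes) and for miR-222-3p-EVs (6.54%). The edgeR fit with the block held 4, 1 and 2 members for miR-183-5p-EVs, miR-222-3p-EVs and all miR-EVs at that level, and 0 after adjustment. Between the mimics, the 3 pairs of miR-EV groups gave 0 called members and 0 at an unadjusted p under 0.05 with or without the block. These adjusted p-values do not show that the levels were alike, and the intervals below give the sizes the data leave room for.

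**Figure D2:**
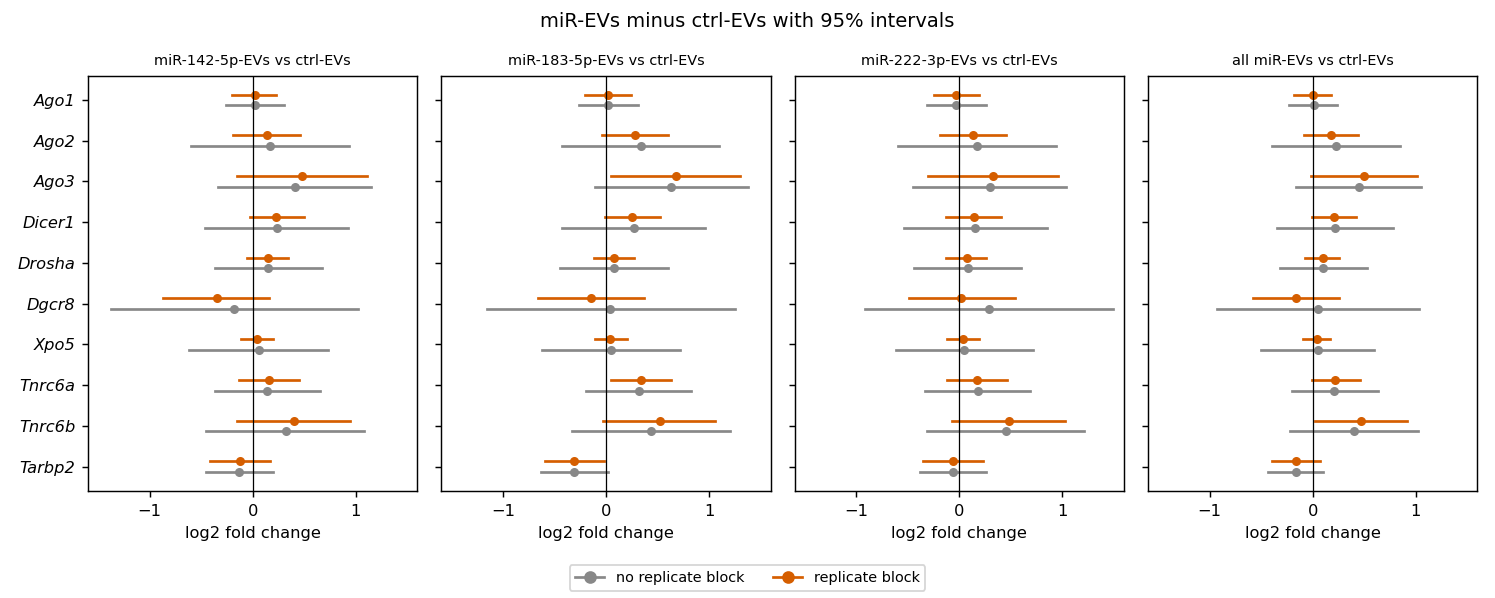
DESeq2 log2 fold changes of the 10 members, miR-EVs minus ctrl-EVs, with 95% intervals, in grey without and in orange with the replicate number as a block. The block shortens most intervals, and the interval of Xpo5 for all miR-EVs runs from -0.09 to 0.17 with it against -0.50 to 0.60 without.

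The nuclear and export step was steadier between EV groups than between replicate numbers. Drosha had 1357, 968 and 1308 normalized counts (estimated counts scaled for depth and transcript length) in ctrl-EV libraries 1, 2 and 3, 1564, 1008 and 1470 with miR-142-5p, 1399, 1032 and 1397 with miR-183-5p, and 1613, 938 and 1291 with miR-222-3p. The 4 libraries numbered 2 were the lowest, and at each number the EV groups lay close together. With the block, the log2 fold change of Drosha in all miR-EVs was 0.10 (95% interval -0.07 to 0.26, DESeq2 adjusted p = 0.665).

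Xpo5 showed the same arrangement, with the least spread within a number of all members. With ctrl-EVs it had 2330, 1430 and 2314 normalized counts, followed by 2464, 1394 and 2452 with miR-142-5p, 2420, 1424 and 2440 with miR-183-5p, and 2500, 1391 and 2390 with miR-222-3p. With the block its log2 fold change in all miR-EVs was 0.04 (-0.09 to 0.17, DESeq2 adjusted p = 0.842).

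Dgcr8, the RNA-binding subunit of the Microprocessor, lay on opposite sides of ctrl-EVs at different numbers. The values were 256, 244 and 379 normalized counts in ctrl-EV libraries 1, 2 and 3, 306, 111 and 359 with miR-142-5p, 339, 124 and 442 with miR-183-5p, and 400, 106 and 568 with miR-222-3p. At number 1 all 3 miR-EV libraries were above ctrl-EVs and at number 2 all 3 were below it, by a mean log2 difference of -1.10. The blocked log2 fold change in all miR-EVs was -0.16 (-0.58 to 0.26, DESeq2 adjusted p = 0.812), and without the ctrl-EV library numbered 2 it was 0.34, so that library decides its sign. At number 2 the TPM of all Dgcr8 transcripts was 5.88 with ctrl-EVs and 2.43 to 2.75 in the miR-EV libraries. In coding transcripts alone it was 1.90 with ctrl-EVs and 1.04 to 1.45 in the miR-EV libraries. Dgcr8 overlaps Trmt2a on the opposite strand over 825 identical bases of transcript, and whether the assignment used the strand is not stated, so part of its reads cannot be told apart from those of Trmt2a, whose mean was 755, 434 and 739 normalized counts at numbers 1, 2 and 3.

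In the Dicer step, Dicer1 had 1879, 2991 and 1645 normalized counts in ctrl-EV libraries 1, 2 and 3, 1810, 3151 and 2707 with miR-142-5p, 1820, 3401 and 2617 with miR-183-5p, and 1663, 3258 and 2334 with miR-222-3p. At number 3 the ctrl-EV library was the lowest of the 4, whereas at number 1 it was the highest. The blocked log2 fold change in all miR-EVs was 0.21 (-0.01 to 0.42, DESeq2 adjusted p = 0.427), and 0.02 without ctrl-EV library 3. Without ctrl-EV library 1 it was 0.37 and was called, with an adjusted p of 0.0422.

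Tarbp2, which encodes Dicer's double-stranded RNA-binding partner, was the only member whose log2 fold change was negative in all 3 miR-EV groups with and without the block. It had 408, 471 and 472 normalized counts in ctrl-EV libraries against 318, 350 and 425 with miR-183-5p, lower in each of the 3 numbers, although the groups overlapped. The other miR-EV libraries had 422, 457 and 361 counts with miR-142-5p and 426, 459 and 411 with miR-222-3p. The blocked log2 fold change for miR-183-5p-EVs was -0.31 (-0.59 to -0.02), with an unadjusted p of 0.0379 and a DESeq2 adjusted p of 0.378.

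The Argonautes differed in how their values were arranged. Ago1, a paralogue of Ago2 that binds the same miRNAs, stayed within 1386 and 1724 normalized counts over the 12 libraries, and its blocked log2 fold change in all miR-EVs was 0.00 (-0.18 to 0.18, DESeq2 adjusted p = 0.995). Ago2 had 5043, 7286 and 3806 normalized counts in ctrl-EV libraries 1, 2 and 3, 3954, 7860 and 6360 with miR-142-5p, 4262, 9473 and 6620 with miR-183-5p, and 3926, 8017 and 6234 with miR-222-3p. All miR-EV libraries were below ctrl-EVs at number 1 and above it at numbers 2 and 3. The blocked log2 fold change in all miR-EVs was 0.18 (-0.08 to 0.44, DESeq2 adjusted p = 0.597). It was -0.07 without ctrl-EV library 3, and 0.47 and called without ctrl-EV library 1 (adjusted p = 0.00496). Ago2 shares 222 bases with Chrac1 on the opposite strand. Reads of the 2 genes can be told apart there only if the assignment used the strand, which is not stated. Chrac1 had means of 270, 154 and 328 normalized counts at numbers 1, 2 and 3, against 4296, 8159 and 5755 for Ago2.

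Ago3 had the largest blocked log2 fold change of the members, 0.50 in all miR-EVs (-0.02 to 1.01, DESeq2 adjusted p = 0.423) and 0.68 in miR-183-5p-EVs (0.05 to 1.3, adjusted p = 0.371). With ctrl-EVs it had 1141, 1497 and 514 normalized counts at numbers 1, 2 and 3, beside 1396, 1489 and 1290 with miR-142-5p, 1171, 2117 and 1603 with miR-183-5p, and 969, 1724 and 1178 with miR-222-3p. The ctrl-EV library numbered 3 was the lowest of all 12, and without it the blocked value in all miR-EVs was 0.14. Ago3 was called for miR-183-5p-EVs (0.52, adjusted p = 0.0300) and for all miR-EVs (0.38, adjusted p = 0.0488) where the block was fitted without the offset for transcript length.

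Tnrc6b, a GW182 gene, also had its lowest value in ctrl-EV library 3. It had 1844, 2797 and 941 normalized counts in ctrl-EV libraries 1, 2 and 3, 2183, 2729 and 2041 with miR-142-5p, 1831, 3140 and 2579 with miR-183-5p, and 2101, 3572 and 1945 with miR-222-3p. The other 11 libraries lay above that one, from 1831 to 3572. The blocked log2 fold change in all miR-EVs was 0.47 (0.02 to 0.92, unadjusted p = 0.0418, DESeq2 adjusted p = 0.381), and 0.16 without that library. Without miR-183-5p-EV library 1 it was 0.53 and called, with an adjusted p of 0.0493.

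Tnrc6a had 1898, 2831 and 1722 normalized counts in ctrl-EV libraries 1, 2 and 3, 2039, 2451 and 2605 with miR-142-5p, 2438, 2966 and 2650 with miR-183-5p, and 1682, 2944 and 2693 with miR-222-3p. It was above ctrl-EVs in 7 of 9 libraries, as were Ago3, Drosha and Tnrc6b, 4 of 10 members, against 17.7% of all tested genes at 7 or more of 9. The blocked log2 fold change for miR-183-5p-EVs was 0.34 (0.05 to 0.63, unadjusted p = 0.0223, DESeq2 adjusted p = 0.317). In all miR-EVs it was 0.22 and, without ctrl-EV library 3, 0.04.

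**Figure D3:**
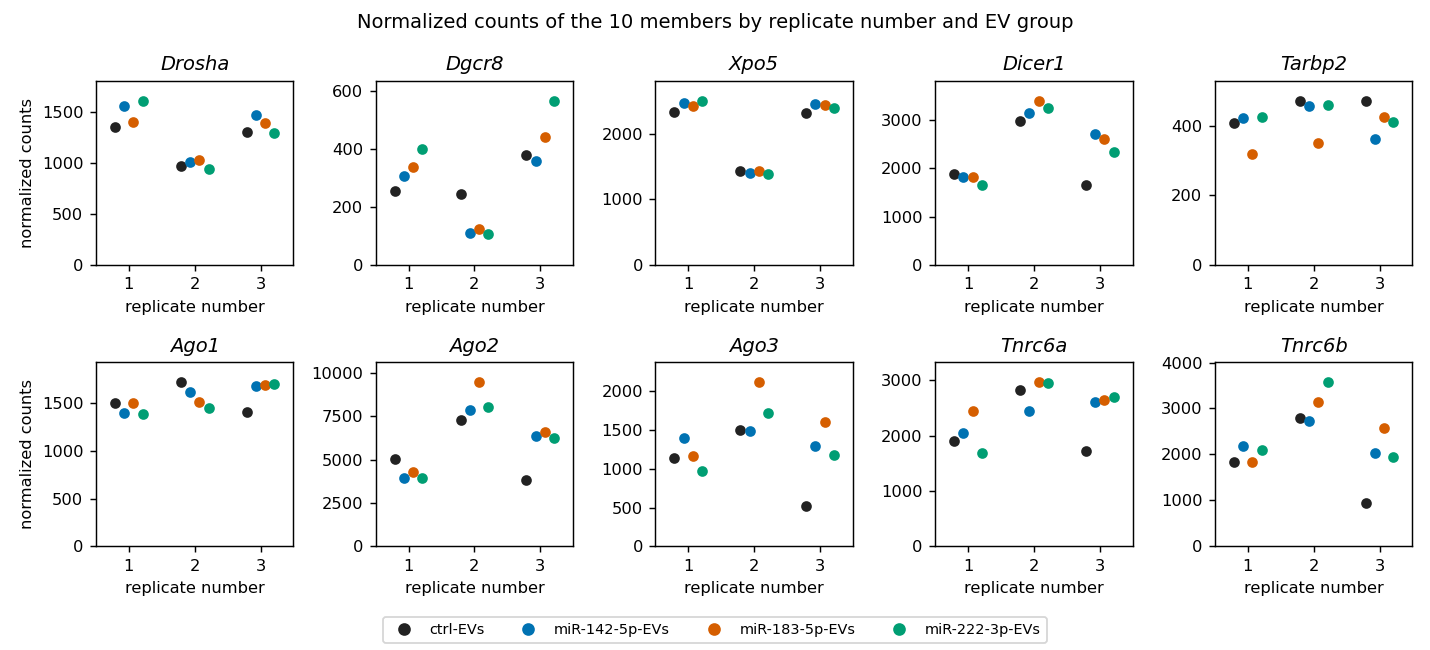
Normalized counts (axis from 0) of each member at replicate numbers 1, 2 and 3, 1 point per library, coloured by EV group. At number 3 the ctrl-EV point lies below the others for Ago2, Ago3, Dicer1, Tnrc6a and Tnrc6b (514 against 1178 to 1603 for Ago3), and Drosha, Dgcr8 and Xpo5 dip at number 2.

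For Ago1, Ago2, Ago3, Dicer1, Tnrc6a and Tnrc6b the mean log2 difference of miR-EVs from ctrl-EVs was highest at number 3, and for Drosha, Dgcr8 and Xpo5 at number 1 (0.17, 0.44 and 0.08). At number 3 all 3 miR-EV libraries were above ctrl-EVs for 7 of 10 members, against 33.0% of all tested genes. The same held for 3 of 10 members at number 1, against 32.5%, and for 2 of 10 at number 2, against 29.1%. For no member did the 9 miR-EV libraries lie apart from the 3 ctrl-EV libraries (0.302% of all tested genes did). The ctrl-EV library numbered 3 differed from the rest of its number by transcript length. Over genes averaging 50 or more normalized counts, those with a leading transcript of 8000 bases and over had a median log2 difference of 0.43 there (89.2% above 0, 406 genes) and those under 2000 bases one of -0.19. The same medians were 0.01 and -0.02 at number 1 and 0.06 and 0.01 at number 2.

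The members with the longest leading transcripts are Tnrc6b with 17332 bases, Ago3 with 15595 and Ago2 with 13800, and at number 3 their log2 differences were 1.21, 1.39 and 0.75. Tnrc6a, with 8183 bases, had 0.62. Dicer1 had 0.63 with a leading transcript of 4724 bases, where the median of its length class was 0.03. That transcript, Dicer1-206, is classed as processed transcript and held 39.2% of the TPM of Dicer1 on average. The length class of the Dicer1 coding transcripts was not examined. Tarbp2, with 1523 bases, had -0.24. With a length correction beside the block, the log2 fold change in all miR-EVs was 0.02 for Ago2, 0.37 for Ago3, 0.34 for Tnrc6b and 0.16 for Dicer1, none of them called. Retained-intron transcripts held 5.48% of TPM in that library, and 6.13% to 6.19% in the other libraries numbered 3. Their part in the members' differences was not tested.

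**Figure D4:**
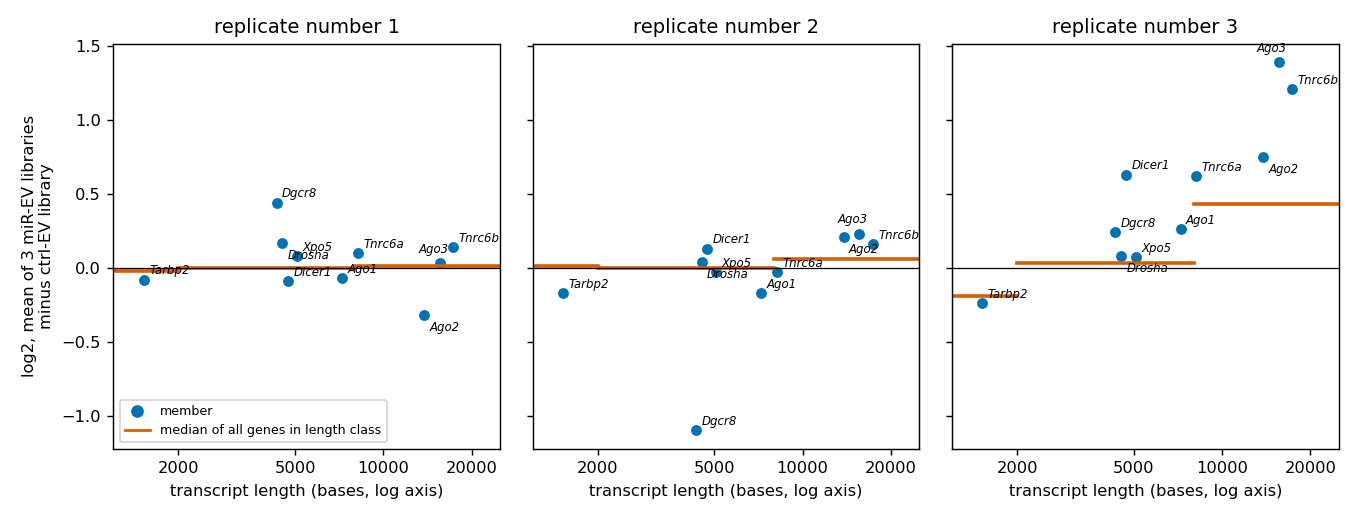
Log2 difference of the mean of the 3 miR-EV libraries minus the ctrl-EV library at each replicate number against the length of each member's most abundant transcript (log axis), with orange lines at the median of all genes in 3 length classes. At number 3 the median of the longest class is 0.43 and Ago3 reaches 1.39, while at numbers 1 and 2 the class medians lie within 0.06 of 0.

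More members were called between replicate numbers than between EV groups. A likelihood ratio test of number beside group asks for any difference among the 3 numbers. It called 7 of 10 members (DESeq2, adjusted p under 0.05), where 69.4% of all tested genes were called, so the members' share is near the background. The adjusted p-values below are those of this test. Where a called gene lay at number 2 against the mean of numbers 1 and 3 is given as an estimate with its error. Of the called members 4 had a positive estimate and 3 a negative one, beside 34.0% and 35.4% of all tested genes, and the 95% intervals of all 7 left out 0. Drosha, Dgcr8 and Xpo5, the members of the nuclear and export steps, had the negative estimates, and Dicer1, Ago2, Tnrc6a and Tnrc6b the positive ones. The nuclear step as a whole had no single direction. Of its 10 other genes in the pathway list, 4 were called with a positive and 4 with a negative estimate. Ran, the only other export gene listed, had -0.24. Ago1, Ago3 and Tarbp2 were not called. The count ran from 5 to 9 members over the alternatives. Ago3 was called in edgeR (adjusted p = 0.0245), among other fits, and Ago1 without ctrl-EV library 3 (0.0115). Tnrc6b was not called without ctrl-EV library 2 or miR-222-3p-EV library 2, and limma called neither Tnrc6a nor Tnrc6b.

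The differences at number 2 from the mean of numbers 1 and 3, as log2 fold changes, were -1.39 ± 0.20 (SE) for Dgcr8, -0.78 ± 0.06 for Xpo5 and -0.53 ± 0.08 for Drosha. The DESeq2 adjusted p-values for any difference between numbers were 4.02e-10, 4.57e-33 and 1.84e-10. For Xpo5 the mean fell from 2429 ± 73.4 normalized counts (SD, n = 4) at number 1 and 2399 ± 62.6 at number 3 to 1410 ± 20.2 at number 2. In coding transcripts alone, Dgcr8 had 1.04 to 1.90 TPM at number 2 and 5.34 to 7.79 TPM at numbers 1 and 3.

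Ago2 was higher by 0.71 ± 0.12 (log2, SE) at number 2, Tnrc6b by 0.69 ± 0.21, Dicer1 by 0.65 ± 0.10 and Tnrc6a by 0.35 ± 0.11. For any difference between numbers their DESeq2 adjusted p-values were 3.99e-09, 0.00610, 3.75e-11 and 0.00172. Dicer1 rose from 1793 ± 92.3 normalized counts (SD, n = 4) at number 1 to 3200 ± 173 at number 2 and stood at 2326 ± 481 at number 3. For 6 of 10 members the 4 libraries numbered 2 lay wholly outside the range of the other 8, against 41.3% of all tested genes. Among the members not called, Ago3 had a log2 difference of 0.58 ± 0.24 at number 2, with a 95% interval of 0.11 to 1.06 and an adjusted p of 0.0622 for any difference. Tarbp2 had 0.09 ± 0.11 (0.579) and Ago1 0.04 ± 0.08 (0.244). Retained-intron transcripts held 7.57% to 8.53% of TPM at number 2 and 5.48% to 6.28% at the other numbers, and their part in these differences was not tested.

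**Figure D5:**
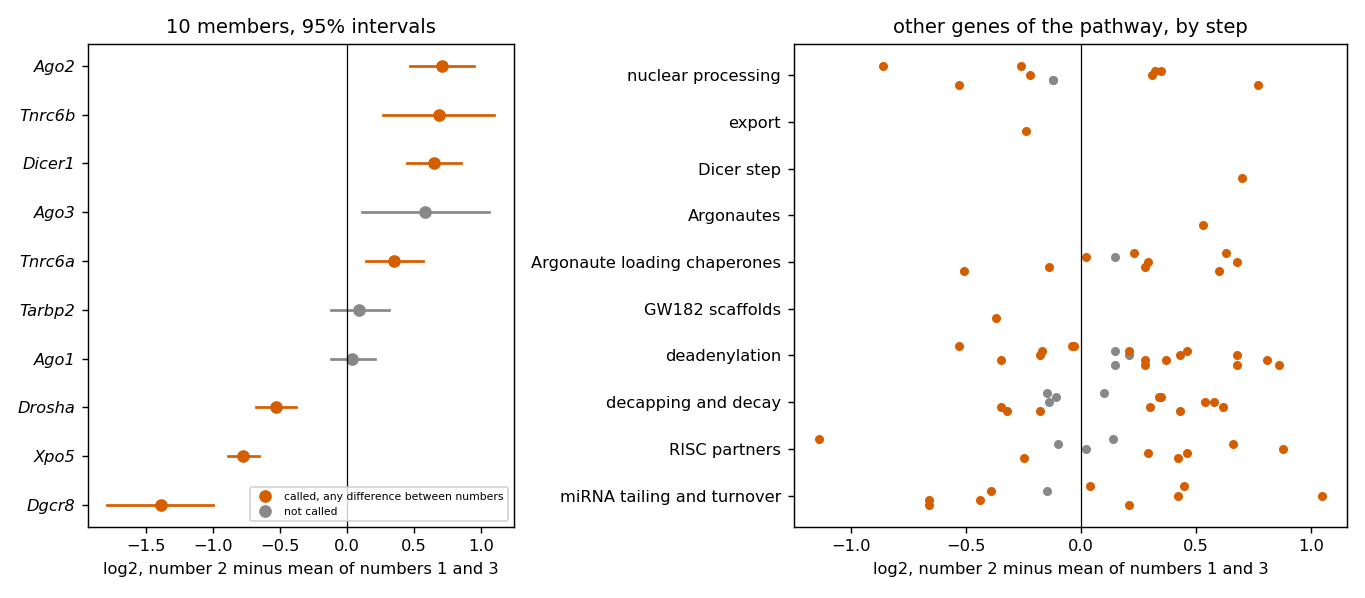
Log2 difference of replicate number 2 from the mean of numbers 1 and 3 for the 10 members with 95% intervals (left) and for the other genes of the pathway by step (right), orange where the adjusted p for any difference between the 3 numbers is under 0.05. Dgcr8, Xpo5 and Drosha lie at -1.39, -0.78 and -0.53 and Ago2 at 0.71.

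The mix of transcripts behind each gene differed widely. Coding transcripts held 97.1% of the TPM of Ago2, 95.8% of Xpo5, 94.7% of Drosha and 87.3% of Ago1 on average over the 12 libraries, nearly all from 1 transcript. They held 71.7% for Tnrc6a, 71.0% for Tnrc6b, 56.9% for Dgcr8, 54.9% for Tarbp2 and 51.4% for Dicer1. The most abundant Dicer1 transcript was Dicer1-206, classed as processed transcript, at 14.6 TPM, above the coding transcripts Dicer1-203 at 12.8 TPM and Dicer1-201 at 6.64 TPM. Hence the rank of Dicer1 above Ago2 does not hold for coding transcripts, which reached 12.0 to 27.4 TPM for Dicer1 and 19.2 to 40.5 TPM for Ago2. Restricting the fits to coding transcripts called 0 members in every comparison with ctrl-EVs.

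Within the Argonaute family Ago2 held 49.0% ± 4.87 of the summed TPM of Ago1 to Ago4 (SD, n = 12), Ago1 28.7% ± 5.06, Ago3 13.9% ± 2.57 and Ago4 8.43% ± 0.847. The Ago2 share was 47.4%, 50.9% and 45.3% in ctrl-EV libraries 1, 2 and 3, 41.1%, 54.4% and 49.8% with miR-142-5p, 43.3%, 56.4% and 49.7% with miR-183-5p, and 43.9%, 54.9% and 50.5% with miR-222-3p. Number 2 had the highest share in every group, with a mean of 54.1% ± 2.35 (n = 4) against 43.9% ± 2.61 at number 1. Over all miR-EVs the share was 1.46 percentage points above ctrl-EVs (two-sided exact permutation test, p = 0.682, 9 against 3 libraries), and the 3 single groups gave exact p-values of 0.700 or above, where 3 against 3 cannot go below 0.1.

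Among the GW182 genes Tnrc6a held 53.7% ± 3.08 of the summed TPM of Tnrc6a, Tnrc6b and Tnrc6c, Tnrc6b 26.9% ± 5.30 and Tnrc6c 19.4% ± 5.00. The Tnrc6a share was 54.3% ± 3.84 (n = 3) in ctrl-EVs, 53.3% ± 1.07 with miR-142-5p, 55.3% ± 3.62 with miR-183-5p and 52.0% ± 3.78 with miR-222-3p. The difference over all miR-EVs was -0.80 percentage points (two-sided exact permutation test, p = 0.727). No difference of either share from ctrl-EVs was larger than the SD of the ctrl-EV libraries.

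The machinery's own 3′ UTRs were searched for the complement of each seed, since the delivered miRNAs could pair there. The letters searched on the transcript strand were ACTTTAT for miR-142-5p, GTGCCAT for miR-183-5p and ATGTAGC for miR-222-3p, in the most abundant coding transcript of GENCODE vM21 (GRCm38), which held a 3′ UTR for 9 members and none for Dicer1. A site for miR-142-5p lay in 3 members, Ago1, Ago3 and Tnrc6b, and in 13.9% of 12548 tested genes. One for miR-183-5p lay in 4 members, Ago1, Ago2, Tnrc6b and Tarbp2, and in 8.90% of genes. Those for miR-222-3p lay in 4 members, Ago1, Ago2, Ago3 and Dgcr8, and in 9.38% of genes. The 3′ UTRs of Ago3 (12742 bases), Tnrc6b (11609) and Ago2 (11064) are long, and length alone raises the number of matches.

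Every site without an A opposite the first miRNA base, except that of Tarbp2, is left out here. The lone miR-183-5p sites of Ago1 and Tnrc6b are among those left out. The sites with an A opposite the first miRNA base, and the single Tarbp2 site, are shown, with the 7 paired letters in capitals, 5′ to 3′ on the transcript. They lie on GRCm38 at chr4:126333646-126333666 (Ago3, minus strand), chr15:73101594-73101614 (Ago2, minus strand), chr15:102523422-102523442 (Tarbp2, plus strand) and chr4:126436815-126436835 (Ago1, minus strand).
Ago3, miR-142-5p: tgtatatataaatACTTTATa
Ago2, miR-183-5p: tgaaaatgtgtgaGTGCCATa
Tarbp2, miR-183-5p: gtaccctccagagGTGCCATc
Ago1, miR-222-3p: gccagtgtgcactATGTAGCa

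Ago2 held 5 of the 8 sites for miR-183-5p found in members, at bases 652, 5029, 5307, 9294 and 10435 of its 3′ UTR. Its blocked log2 fold change in miR-183-5p-EVs was 0.28 (-0.04 to 0.60, DESeq2 adjusted p = 0.495), 0.14 in miR-142-5p-EVs and 0.13 in miR-222-3p-EVs. Whether these sites acted on any member was not tested. Tarbp2, with 1 site at base 93, had -0.31 in miR-183-5p-EVs against -0.12 and -0.06 in the other groups. Ago1 and Tnrc6b, each also with 1 site for miR-183-5p, had 0.02 and 0.52 in miR-183-5p-EVs. Ago3, with 3 sites for miR-142-5p, had 0.48 in miR-142-5p-EVs (adjusted p = 0.914), and Ago1, with the longer site for miR-222-3p, had -0.03 in miR-222-3p-EVs (adjusted p = 0.994). In the fits of all 12 libraries by DESeq2 with the length offset, with or without the block, no member was called in the group whose mimic matched its site. With single libraries left out, Ago2 (0.56, adjusted p = 0.00318, without ctrl-EV library 1) and Tnrc6b (0.70, adjusted p = 0.0485, without miR-183-5p-EV library 1) were called higher in miR-183-5p-EVs with the block, and both hold a site for miR-183-5p. A match of letters is a description and not a measured target.

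Few of the other pathway genes were called between miR-EVs and ctrl-EVs. Of 81 further genes in 10 steps, from cofactors of Drosha to decapping enzymes, 77 were tested, and 0 were called in any comparison of miR-EVs with ctrl-EVs without the block. Their median log2 fold change in all miR-EVs was 0.02, beside 0.01 over all tested genes and 0.16 over the members. With the block, 2 of 77 were called for miR-183-5p-EVs, beside 0.417% of all tested genes, and 1 of 77 for all miR-EVs, beside 0.603%. These calls came from 2 genes, Cnot6l and Pan3, both higher.

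Cnot6l, a catalytic deadenylase subunit of the CCR4-NOT complex, had 2021, 1679 and 1380 normalized counts in ctrl-EV libraries 1, 2 and 3, 2580, 1817 and 1833 with miR-142-5p, 2379, 2340 and 1916 with miR-183-5p, and 2582, 2146 and 1875 with miR-222-3p. It was above the ctrl-EV library of its number in 9 of 9 libraries. Of all tested genes 17.7% were so in at least 7 of 9, and the share at 9 of 9 was not counted. The count restates the values behind its call, and the 9 comparisons share 3 ctrl-EV libraries. Its blocked log2 fold change was 0.36 ± 0.08 (SE) in all miR-EVs (DESeq2 adjusted p = 0.0113) and 0.40 ± 0.10 in miR-183-5p-EVs (adjusted p = 0.0330). In all miR-EVs the adjusted p passed 0.05 without ctrl-EV library 3 (log2 fold change 0.32, adjusted p = 0.0565), miR-142-5p-EV library 1 (0.34, 0.0780) or miR-222-3p-EV library 3 (0.36, 0.0533), and in edgeR with the block (0.35, 0.286). Without the length offset it was 0.28 (0.0763). For miR-183-5p-EVs the adjusted p of Cnot6l was above 0.05 without miR-183-5p-EV library 2 (0.32, 0.504) or ctrl-EV library 3 (0.36, 0.0762). The same held without miR-142-5p-EV library 3 or any single miR-222-3p-EV library. It also held without the length offset (0.35, 0.0855) and in edgeR with the block (0.39, 0.340). Pan3, the adaptor of the PAN2 deadenylase, was called for miR-183-5p-EVs with 0.51 ± 0.14 (adjusted p = 0.0460), from 1068, 1718 and 1224 normalized counts in ctrl-EVs to 1729, 2166 and 1719. Its call was lost without any of several single libraries, with 0.43 and an adjusted p of 0.121 without ctrl-EV library 3, and edgeR with the block gave 0.50 and 0.340.

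Between replicate numbers 63 of 77 pathway genes were called for any difference, 81.8%, against 69.4% of all tested genes. At number 2 the 95% interval of the difference from the mean of numbers 1 and 3 lay above 0 for 38 of the 63 and below 0 for 21. It spanned 0 for the other 4, Fkbp4, Cnot6l, Pabpc4 and Zswim8. Of the only further genes of their steps, Prkra, an alternative Dicer partner, was higher at number 2 by 0.70 ± 0.09 (log2, SE) and Ago4 by 0.53 ± 0.10. Tnrc6c had -0.37 ± 0.12, with means of 945, 858 and 1297 normalized counts at numbers 1, 2 and 3, so that number 3 lay farthest from the others. Lin28b, which blocks processing of let-7 precursors, was higher by 1.05 ± 0.10 and Fxr1, an RNA-binding protein of the FMRP family, by 0.88 ± 0.09. Pan2, a deadenylase, was higher by 0.86 ± 0.07. Snd1, a nuclease associated with silencing complexes, had -1.14 ± 0.24 and Srsf3, a splicing factor that helps Microprocessor recognise hairpins, -0.86 ± 0.07. Tsn, a subunit of the C3PO nuclease, had -0.66 ± 0.08.

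The genes whose levels followed Ago2 most closely over the 12 libraries, after the mean of each number was subtracted, were Gm48368 (r = 0.983), Tet3 (r = 0.973) and Gm9864 (r = 0.968), of 10781 genes compared. For Dicer1 they were Zfp871 (r = 0.973), Hipk1 (r = 0.971) and Ncoa2 (r = 0.969), and Ago2 and Dicer1 had r = 0.924 with each other. Without ctrl-EV library 3, low for both members, r was 0.883 to 0.956 for the 3 genes like Ago2, 0.800 to 0.872 for those like Dicer1 and 0.692 between the members.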

How the data were processed

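Per the labels, stranded mRNA libraries of 12 RAW264.7 samples were sequenced. The authors quantified transcripts with Salmon, and the deposited files hold their estimated counts and TPM per transcript. The submitters' processing notes name a human build, which the mouse identifiers do not match, and strand use and filters are not given in the sources used here. Of 118783 transcripts, 98.3% matched GENCODE vM21 (GRCm38), and the others held 0.570% to 0.642% of counts. Counts were summed to genes, rounded and, where 3 or more libraries had 10 or more counts, tested with DESeq2 1.42.0 in R 4.3.3 with a length offset as tximport gives and 1 term for group (two-sided, Benjamini-Hochberg over 13923 genes, threshold 0.05). Titles gave groups and numbers. Same-numbered libraries deviated together (18 pairs, correlation 0.409 to 0.797), so fits with the number as a block stand beside the results. The chi-square per degree of freedom between libraries of a group was at least 27.9, so none is a duplicate. Alternatives used edgeR 4.0.16, limma 3.58.1 (pseudocount 1 TPM), other filters, offsets and left-out libraries. Near-identical stretches (at least 95% over 151 bases) were sought with BLAST 2.17.0 and found only where Dgcr8 and Ago2 overlap another gene. Scripts were tested on simulated data. All members were named, with pathway genes called in either fit, up to 3 rises and 3 falls each, and for Ago2 and Dicer1 the 3 most similar genes. Members and lists were chosen with earlier results of these data known. Counting noise depends on the 16294611 to 22974853 counts per library, and intervals also cover the spread between libraries.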

Additional observations from a re-analysis of the deposited data

How the results depend on the processing

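Each member's log2 fold change in the 4 comparisons with ctrl-EVs was computed under every alternative listed in the methods. Its sign turned in 133 of 1530 such values, in none of them with an unadjusted p under 0.05 in either fit, and a turn was counted as a reversal only in that case. A member gained a call in 8 of them. None could be lost, since the fit of the 4 groups without the block had called 0 members. In the fit with the replicate block but no length offset 1 member, Ago3, was called for miR-183-5p-EVs and 1 for all miR-EVs. Leaving out each library in turn gave 0 to 2 members called for miR-183-5p-EVs, 0 to 2 for all miR-EVs and 0 to 1 over the 4 groups, and 0 for the other mimics. The calls came with the replicate block only, for Ago2 and Dicer1 without ctrl-EV library 1 and for Tnrc6b without miR-183-5p-EV library 1. The fits with a library left out and a block, those on coding transcripts and those with all miR-EVs as 1 group were added after the data were seen. The cause of these changes was not tested.

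Of the pathway genes, 2 were called for miR-183-5p-EVs and 1 for all miR-EVs with the replicate block, 3 and 1 with the block and a length correction, and 2 and 1 with the block and a GC correction, which also called 1 for miR-222-3p-EVs. The block without length offset called 1 for all miR-EVs. On coding transcripts the block called 2 for miR-183-5p-EVs, 2 for all miR-EVs and 1 over the 4 groups, and with all miR-EVs as 1 group it called 2. With single libraries left out the counts were 0 to 4 for miR-183-5p-EVs, 0 to 3 for all miR-EVs, 0 to 1 for miR-142-5p-EVs, 0 to 1 for miR-222-3p-EVs and 0 to 1 over the 4 groups. Between replicate numbers 5 (limma) to 9 (without ctrl-EV library 3) members were called, against 7, and 57 to 68 pathway genes, against 63. The tests of both shares, the paired replicate block included, changed no call. Exact tests cannot go below p = 0.25 with 3 pairs or below 0.1 with 3 against 3 libraries. Such tests could therefore not have given a call. With 8-letter sites only, 1 member each had a site for miR-222-3p, for miR-183-5p and for miR-142-5p. An adjusted p that DESeq2 did not give was left out.

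With 3 libraries a group, differences between miR-EVs and ctrl-EVs that lie within the intervals given were not excluded. The width of these intervals differs between genes and fits. All 3 comparisons share the same ctrl-EV libraries.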
